A study of Mus musculus with 6 samples.

Results

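Cytosolic ribosomal protein genes were followed in mouse hippocampal neurons in culture, before and after depolarisation with KCl for 0.5 h or 3 h. The members were taken by name: symbols beginning Rps (small subunit), Rpl or Rplp (large subunit), without pseudogenes and the Rps6k kinases, at a mean of at least 5 cRPKM in the untreated libraries. The cRPKM is the level that the authors deposited, a count scaled by gene length and by the library's total. These rules gave 76 genes, 30 of the small and 46 of the large subunit, out of 21553 genes with values. Of 85 symbols that fit the name pattern, 5 belonged to pseudogenes (Rpl6l, Rps12l1, Rps3a2, Rps3a3 and Rps4l), 3 lay below the level (Rpl3l, Rpl39l and Rpl10l) and 1, Rps18, had no value. Just inside the level were Rps13 at 6.64 and Rpl21 at 6.94 cRPKM, and just outside were Rpl3l at 0.295 and Rpl39l at 0.05 cRPKM. Rpl24 and Rpl41 were not analysed here.

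Each cytosolic ribosome joins a small subunit, which reads the mRNA, with a large subunit, which makes the peptide bond, and most of their proteins are present in a single copy per ribosome. Cells keep these proteins in step largely by translating their mRNAs together: most begin with a cytosine followed by a run of pyrimidines, the 5' terminal oligopyrimidine (TOP) tract, whose translation is turned up by mTOR signalling and held back by Larp1. In neurons, synaptic activity feeds into the same mTOR pathway, and ribosomal protein mRNAs are also found in dendrites and axons. The measurements here are mRNA levels and say nothing of translation.

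Per the labels, primary hippocampal neurons came from C57bl/6 mice at E16.5, before birth, and were used after 10 days in culture. Untreated cultures, with no KCl, were compared with cultures given 55 mM KCl for 0.5 h and with cultures given 55 mM KCl for 3 h. Each group had 2 libraries, numbered 1 and 2, from total RNA. They are biological duplicates per the labels, which do not say whether cultures or animals were duplicated, so p-values measure only the spread between libraries, which may in part be technical.

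The total count per library ran from 98882007, in 3 h replicate 2, to 141865913. Neuronal markers (6 of 6 above 0 in each library) summed to 1212 to 2039 cRPKM, lowest in 3 h replicate 2. Astrocyte markers (5 of 5 above 0) summed to 608 and 918 cRPKM untreated, 617 and 1014 at 0.5 h, and 676 and 1407 at 3 h, higher in replicate 2 than in replicate 1 of every group. Oligodendrocyte-lineage markers summed to 192 to 301 cRPKM, while all 5 microglial markers were under 1 cRPKM in each library. In 3 h replicate 2 a subset of the ribosomal protein genes also stood far above every other library, so the counts at 3 h, and the changes of single members that move by over 1.5 times, are also given without it. Whether its glial and neuronal marker levels play a part in the results was not tested. In these bulk samples, fewer cells of a type and less RNA per cell cannot be told apart.

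The start of the mRNA is shown first, because the TOP tract is the feature that ties this family together. RefSeq's promoter table (GRCm38.p6) held 56 of the 76 members. Each line gives the 10 bases before and the 20 bases from the annotated start, 5' to 3' on the gene's strand. Capitals mark a run of at least 5 C and T bases that opens with C within 10 bases of that start. The first 6 genes have such a run and the last 2 do not, and all but Rplp2 were called higher at 3 h.
Rps6, chr4:86857348-86857377, minus strand: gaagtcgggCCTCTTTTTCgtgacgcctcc
Rps15a, chr7:118116128-118116157, minus strand: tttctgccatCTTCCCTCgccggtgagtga
Rpl18, chr7:45718061-45718090, plus strand: ctcgcaggccgCTCTTTCCCCgcccactcc
Rpl38, chr11:114668570-114668599, plus strand: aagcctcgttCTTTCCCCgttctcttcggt
Rpl22l1, chr3:28805498-28805527, plus strand: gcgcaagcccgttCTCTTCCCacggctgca
Rplp2, chr7:141447641-141447670, plus strand: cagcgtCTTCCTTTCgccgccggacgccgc
Rps25, chr9:44407704-44407733, plus strand: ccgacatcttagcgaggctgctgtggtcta
Rpl7l1, chr17:46782637-46782666, minus strand: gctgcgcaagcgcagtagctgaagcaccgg
The run was found in 35 of 56 members (62.5%) and in 34.4% of the 27025 genes in the table. A gene with several annotated starts counted once. In the longer window of 250 bases before to 50 bases after the start, on either strand, CCGGAAG, a core of ETS-family sites, was in 22 members (39.3%, against 9.93% of all genes). TGACG, the core of CREB and ATF sites, was in 28 (50%, against 23%). AGATGGC, the core of the YY1 motif, was in 8 (14.3%, against 7.31%), and TATAAA was in 7 (12.5%, against 15.7%). A match is a string of letters in a window and not a shown binding site, and the table's build differs from the mm9 build of the deposited values, so genes were joined by symbol.

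Ribosomal protein mRNA held a larger share of the transcriptome in both 3 h libraries than in the other 4. The members took 0.714% and 0.702% of all counts in the untreated libraries, 0.726% and 0.756% at 0.5 h, and 0.809% and 0.997% at 3 h. As a share of the summed cRPKM, which gives short mRNAs their weight, they held 4.41% and 4.37% untreated, 4.44% and 4.52% at 0.5 h, and 4.74% and 6.85% at 3 h. The 3 h replicate 1 library was above the other groups by little and the replicate 2 library by much. Small subunit genes made up 1.67% and 1.63%, 1.69% and 1.68%, then 1.82% and 2.55% of the summed cRPKM. Large subunit genes made up 2.74% and 2.74%, 2.75% and 2.84%, then 2.91% and 4.30%. In neither subunit did the 3 h libraries overlap those of the other groups.

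Levels per length differed widely among these genes, whose proteins the ribosome mostly holds in equal numbers. The highest members were of the large subunit: Rplp1 at 2432 ± 127 cRPKM (SD, n = 2), Rpl32 at 1340.0 ± 109 and Rpl36 at 695 ± 68.8 in untreated neurons. In the small subunit, Rps6 stood at 691 ± 2.77 cRPKM (SD, n = 2), Rps2 at 606 ± 95.6 and Rps15 at 534 ± 46.0, and Rps2 differed from each of the others by less than its own spread. The lowest of the small subunit were Rps13 at 6.63 ± 1.05 and Rps27 at 9.15 ± 2.98, and the lowest of the large subunit were Rpl21 at 6.94 ± 1.49 and Rpl11 at 7.49 ± 0.98 cRPKM (SD, n = 2). Those 4 differed by less than the spread of Rps27. The deposited pair of values implies an effective length for each gene, the number of bases that the authors' cRPKM counts as usable. For many members it was a small part of the mRNA. Among the highest it was 78 bases for Rplp1, 132 for Rpl32, 20 for Rpl36, 129 for Rps6, 47 for Rps2 and 429 for Rps15. The order by cRPKM is thus not an order by count: Rpl36 had 2110 and 1722 counts untreated, and Rps15 had 30555 and 32408. Rps27 had 2 usable bases and counts of 2, 3, 0, 0, 2 and 1 across the libraries, so it was left out of the tests, which covered the other 75 members.

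**Figure D1:**
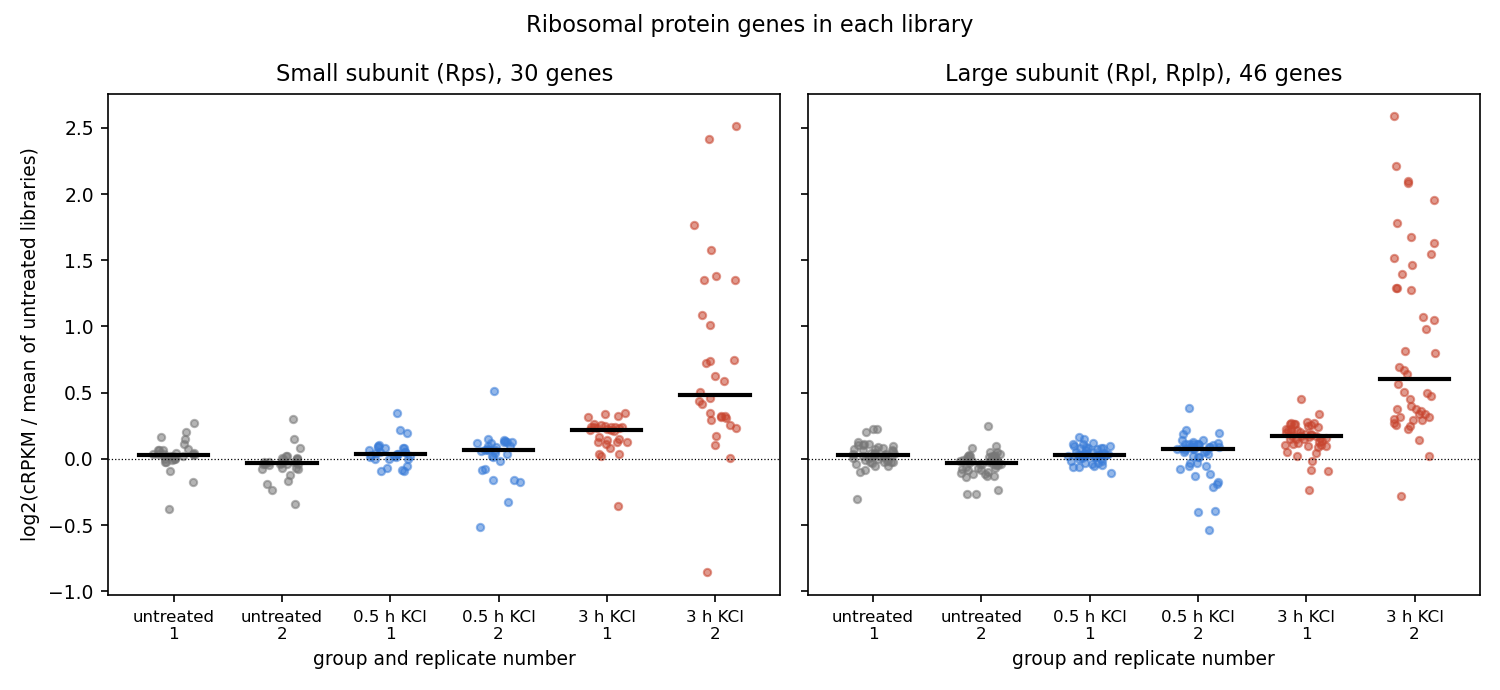
The level of each member in each library as log2 of its cRPKM over the mean of the untreated libraries, small subunit on the left and large subunit on the right. Points are genes and bars are medians; Rps27, at 0 in both 0.5 h libraries, has no point there. Points stay near 0 at 0.5 h, rise by little in 3 h replicate 1 and spread far upward in 3 h replicate 2.

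After 0.5 h of KCl no ribosomal protein gene passed the test. Of 75 members tested, 0 were called higher and 0 lower by edgeR's quasi-likelihood test at an adjusted p under 0.05, with 0 either way at an unadjusted p under 0.05. DESeq2 and limma also called 0. Among all 15895 genes tested 0.0818% were called higher and 0% lower, so the share of members is at the background. The median log2 change was 0.05 in the small and 0.03 in the large subunit, beside -0.0003 over all genes, and single members ran from -0.31 to 0.35. Both 0.5 h libraries were above both untreated ones for 25 of 76 members, where 14.8% of all genes were. They were below both for 2, Rps7 and Rps27, against 1014 of the 15895 genes tested. For Rps27 this rested on counts of 2 and 3 untreated against 0 and 0 at 0.5 h.

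After 3 h of KCl many genes of both subunits were higher. Of 75 members tested 37 rose (edgeR, adjusted p under 0.05), 16 of 29 in the small and 21 of 46 in the large subunit, and 0 fell. Over all genes 18.6% were called higher and 18.6% lower. The fitted change was above 0 in 74 of 75 members, the exception being Rpl10 at -0.02, and in 7598 of 15895 genes tested. The median log2 change was 0.40 in the small and 0.45 in the large subunit, beside -0.03 over all genes. Both 3 h libraries lay above both untreated libraries in 62 of 76 members (26 small, 36 large), against 24.1% of all genes. Both lay below in 0 members, against 5700 of the 15895 genes tested. The number of calls depended on single libraries and on the replicate block, the term that pairs libraries by number. It was 7 with no replicate block, where 8.71% of all genes were called higher, so the share of members was then near the background. It was 56 without 3 h replicate 2 (30.3% of all genes) and 69 without 3 h replicate 1 (32.5%), and 0 without untreated replicate 2 (8.3%). The first 3 of those sets held 7, 37 and 37 of the 37 genes. Without untreated replicate 1, 0.5 h replicate 1 and 0.5 h replicate 2 in turn it was 41, 42 and 42, holding 13, 16 and 16 of the 37, with 12.5%, 15.3% and 15.3% of all genes called higher.

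**Figure D2:**
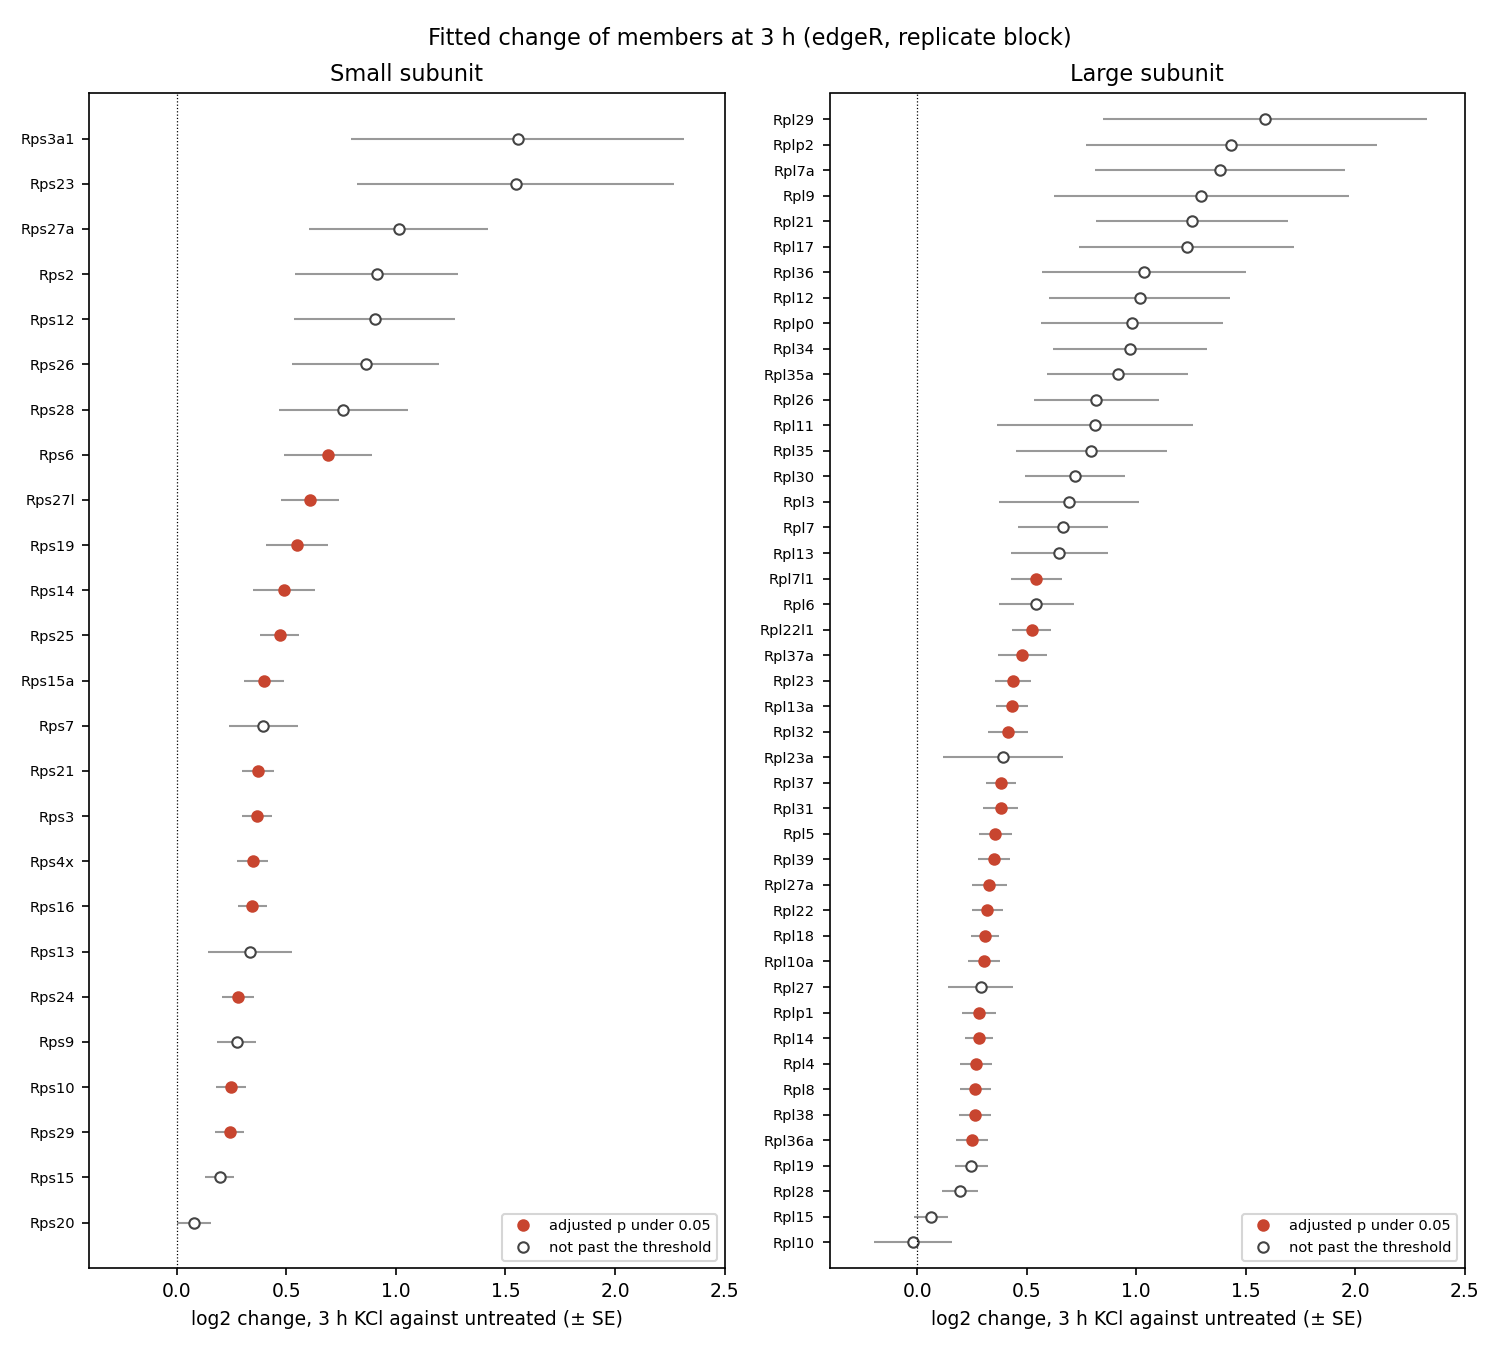
The fitted log2 change at 3 h against untreated, with its SE, for the tested members reported here, ordered within each subunit. Filled points passed the threshold of adjusted p under 0.05. The largest changes have the widest errors and are open, and the filled points lie between 0.24 and 0.69.

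In the small subunit the largest rise among called genes was that of Rps6 (ENSMUSG00000028495), the protein that S6 kinases phosphorylate downstream of mTOR. It stood at 693 and 689 cRPKM untreated, 705 and 709 at 0.5 h, and 806 and 1393 at 3 h. Both 3 h libraries were above the other 4, with replicate 2 far ahead, and the fitted log2 change was 0.69 ± 0.20 (SE, adjusted p = 0.0495). Leaving out 3 h replicate 2, Rps6 had a change of 0.32 and was still called. Rps27l (ENSMUSG00000036781), a paralog of Rps27 known as a p53 target, stood at 46.8 and 42.6 cRPKM untreated, 47.4 and 46.7 at 0.5 h, and 56.7 and 75.05 at 3 h. Its 3 h libraries were the highest of the 6 and the log2 change was 0.61 ± 0.13 (SE, adjusted p = 0.0238), or 0.40 without 3 h replicate 2, also called.

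Rps19 (ENSMUSG00000040952), which is needed to mature the RNA of the small subunit and is mutated in Diamond-Blackfan anaemia, followed. Its levels were 95.5 and 91.0 cRPKM untreated, 94.9 and 94.1 at 0.5 h, and 110.0 and 156 at 3 h. Both 3 h libraries were above the other 4, and the log2 change was 0.55 ± 0.14 (SE, adjusted p = 0.0362). Rps14, whose deletion underlies a form of human anaemia, stood at 452 and 464 cRPKM untreated, 475 and 498 at 0.5 h, and 499.8 and 757 at 3 h. The log2 change was 0.49 ± 0.14 (SE, adjusted p = 0.0489), and in 3 h replicate 1 the level was barely above that of 0.5 h replicate 2. Both genes were also called without 3 h replicate 2, Rps19 at 0.31 and Rps14 at 0.25.

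Rps25, which some viral mRNAs need to start translation, stood at 315 and 318 cRPKM untreated, 320.0 and 345 at 0.5 h, and 372 and 477 at 3 h. Its log2 change was 0.47 ± 0.088 (SE, adjusted p = 0.0168), with all of the 3 h values above the rest. Rps15a, Rps21, Rps3, Rps4x, Rps16, Rps24, Rps10 and Rps29 were also called and rose by 0.24 to 0.40 on the log2 scale.

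At the other end, Rps20 and Rps15 did not pass. Rps20 stood at 41.5 and 41.7 cRPKM untreated, 41.6 and 45.6 at 0.5 h, and 42.7 and 41.8 at 3 h, with the 0.5 h libraries on both sides of those at 3 h and a log2 change of 0.079 ± 0.078 (SE, adjusted p = 0.447). Rps15, whose tail reaches the decoding site, stood at 502 and 567 cRPKM untreated, 501 and 593 at 0.5 h, and 542 and 638 at 3 h. Its replicate 2 libraries were the higher ones in each group, and the log2 change was 0.19 ± 0.067 (SE, adjusted p = 0.0753). Rps13, with 49 to 67 counts per library, had a log2 change of 0.33 ± 0.19 (SE, adjusted p = 0.217). Rps20 and Rps15 were called without 3 h replicate 2, at 0.17 and 0.22.

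In the large subunit the largest called rises were those of Rpl7l1 and Rpl22l1, each the paralog of another member. Rpl7l1 (ENSMUSG00000063888), a relative of Rpl7 that acts in the assembly of the large subunit, stood at 21.1 and 20.5 cRPKM untreated, 22.2 and 22.6 at 0.5 h, and 25.2 and 33.8 at 3 h. Its log2 change was 0.54 ± 0.12 (SE, adjusted p = 0.0226). Rpl22l1 (ENSMUSG00000039221), the paralog of Rpl22, stood at 37.8 and 42.3 cRPKM untreated, 39.0 and 52.2 at 0.5 h, and 48.1 and 63.6 at 3 h. Here the replicate 2 library was above the replicate 1 library in every group, 0.5 h replicate 2 was above 3 h replicate 1, and the log2 change was 0.52 ± 0.088 (SE, adjusted p = 0.0129).

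Rpl37a and Rpl23 also rose. Rpl37a stood at 165 and 164 cRPKM untreated, 167 and 175 at 0.5 h, and 189 and 257 at 3 h, with a log2 change of 0.48 ± 0.11 (SE, adjusted p = 0.0285). Rpl23 (ENSMUSG00000071415), which can also bind the p53 regulator Mdm2, stood at 208 and 204 cRPKM untreated, 214 and 222 at 0.5 h, and 247 and 292 at 3 h, with a log2 change of 0.44 ± 0.081 (SE, adjusted p = 0.016). In both genes the 3 h libraries were the highest. Rpl37a was at 0.31 without 3 h replicate 2, also called.

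Rpl13a, known outside the ribosome for silencing inflammatory mRNAs, rose by 0.43 on the log2 scale (adjusted p = 0.013). Rpl32, the highest member after Rplp1, stood at 1417 and 1262 cRPKM untreated, 1401 and 1395 at 0.5 h, and 1606 and 1835 at 3 h. Its log2 change was 0.41 ± 0.092 (SE, adjusted p = 0.0253) and its 3 h libraries did not overlap the rest. Further called genes outside the stalk and the 5S particle were Rpl37, Rpl31, Rpl39, Rpl27a, Rpl22, Rpl18, Rpl10a, Rpl14, Rpl4, Rpl8, Rpl38 and Rpl36a, with log2 changes of 0.25 to 0.38. Rpl38, which mouse embryos need to translate a set of Hox mRNAs, was near the low end of them at 0.26. Rpl28, at 0.19 (adjusted p = 0.122), and Rpl19, at 0.25 (adjusted p = 0.0552), did not pass. Rpl15 stood at 56.0 and 47.3 cRPKM untreated, 52.8 and 47.8 at 0.5 h, and 51.0 and 52.5 at 3 h, and its groups overlapped, with a log2 change of 0.063 ± 0.078 (SE, adjusted p = 0.547). Rpl10, which joins late in assembly and lines the peptidyl site, had a log2 change of -0.018 ± 0.18 (SE, adjusted p = 0.943) from only 67 to 124 counts per library. Without 3 h replicate 2, Rpl28 and Rpl19 were called (0.29 and 0.32), and Rpl15 and Rpl10, at -0.016 and 0.17, were not.

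The P stalk, the flexible arm that recruits elongation factors, is built of Rplp0 at the base and the Rplp1 and Rplp2 dimers, beside Rpl12. Rplp1, the highest member, stood at 2342 and 2522 cRPKM untreated, 2339 and 2625 at 0.5 h, and 2521 and 3206 at 3 h. It was called at 0.28 ± 0.077 (SE, adjusted p = 0.0422), although 3 h replicate 1 and untreated replicate 2 were at the same level. Rplp0 stood at 305 and 263 cRPKM untreated, 300.3 and 259.8 at 0.5 h, and 315 and 832 at 3 h, with 0.98 ± 0.42 (SE, adjusted p = 0.12). Replicate 2 at 3 h was the only library that stood out for it, as for the next members. Rplp2 stood at 13.9 and 9.89 cRPKM untreated, 12.2 and 9.07 at 0.5 h, and 13.4 and 55.3 at 3 h, with 1.43 ± 0.66 (SE, adjusted p = 0.145). Rpl12 stood at 28.6 and 26.1 cRPKM untreated, 29.1 and 26.8 at 0.5 h, and 30.3 and 84.6 at 3 h, with 1.01 ± 0.41 (SE, adjusted p = 0.111). Without 3 h replicate 2, Rplp0, Rplp1 and Rpl12 were called, at 0.14, 0.22 and 0.18, and Rplp2 was not (0.054).

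Rpl5 and Rpl11 form the 5S particle with the 5S RNA, which docks on the large subunit and, when free, binds Mdm2. Rpl5 stood at 244 and 232 cRPKM untreated, 252 and 254 at 0.5 h, and 279 and 309 at 3 h. It rose with a log2 change of 0.36 ± 0.076 (SE, adjusted p = 0.0231), and both 3 h libraries were above the rest. Rpl11 stood at 8.18 and 6.79 cRPKM untreated, 7.17 and 7.11 at 0.5 h, and 7.03 and 20.6 at 3 h. Only 3 h replicate 2 stood out, the 3 h replicate 1 library being below untreated replicate 1, and the log2 change was 0.81 ± 0.45 (SE, adjusted p = 0.202). Without that library it was -0.067.

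Of 11 tested genes in the paralog pairs 7 rose (63.6%) and 0 fell at 3 h, beside 18.6% higher and 18.6% lower over all genes. Both genes rose in the pairs Rpl22 with Rpl22l1 and Rpl36a with Rpl36al. Rpl22 had a log2 change of 0.32 ± 0.072 (SE, adjusted p = 0.0259), and Rpl36a one of 0.25 ± 0.073 (SE, adjusted p = 0.0498). Rpl36al, which the name pattern does not take, had one of 0.25 ± 0.065 (SE, adjusted p = 0.0373). In the pair Rpl7 and Rpl7l1 the paralog passed and Rpl7 did not, at 0.67 ± 0.21 (SE, adjusted p = 0.057); the difference between them was not tested. Rps27 was too sparse to set beside Rps27l. Rpl39 rose by 0.35 (adjusted p = 0.0223), while Rpl39l and Rpl10l were too low to test. Rpl3l, at 0.23 to 0.5 cRPKM in every library, had a log2 change of 0.30 ± 0.23 (SE, adjusted p = 0.34). Rpl3, close to the peptidyl transferase centre, had a log2 change of 0.69 ± 0.32 (SE, adjusted p = 0.144). In the fit without 3 h replicate 2 the change was 0.29 for Rpl7, which was then called, and 0.064 for Rpl3, which was not. Since reads of near-identical copies may be split in the authors' counting, single paralog values are uncertain.

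A group of members stood out in 3 h replicate 2 alone. Rps3a1 (ENSMUSG00000028081), on the solvent side of the small subunit, stood at 72.9 and 47.7 cRPKM untreated, 56.8 and 42.2 at 0.5 h, and 65.1 and 322 at 3 h. Rps23 (ENSMUSG00000049517), a protein of the decoding centre, stood at 78.9 and 58.2 cRPKM untreated, 65.2 and 61.5 at 0.5 h, and 72.7 and 392 at 3 h. Rpl29 (ENSMUSG00000048758) stood at 71.3 and 60.3 cRPKM untreated, 65.8 and 56.9 at 0.5 h, and 67.7 and 396 at 3 h. For these 3 genes the replicate 1 library at 3 h lay among the untreated ones, and the replicate 2 library was 6.76-fold, 6.73-fold and 6.56-fold above its untreated counterpart. None was called in the fit of all 6 libraries (adjusted p 0.162, 0.149 and 0.147 by edgeR). Once 3 h replicate 2 was left out their changes were -0.031, 0.051 and 0.028, and again none was called.

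Rpl9, Rpl7a, Rpl17 and Rpl21 of the large subunit were likewise far higher in 3 h replicate 2 than in 3 h replicate 1. Rpl7a stood at 67.7 and 61.0 cRPKM untreated, 69.8 and 48.7 at 0.5 h, and 78.0 and 276 at 3 h. Rpl17, at the mouth of the tunnel through which the new chain leaves, stood at 30.03 and 26.9 cRPKM untreated, 28.9 and 27.4 at 0.5 h, and 32.8 and 111 at 3 h. In replicate number 2 the log2 change at 3 h was 2.35 for Rpl9, 2.18 for Rpl7a, 2.04 for Rpl17 and 2.02 for Rpl21, against -0.20, 0.20, 0.13 and 0.25 in replicate number 1. Rps27a, which is made fused to ubiquitin, gave 1.77 against 0.054, and Rps2, at the mRNA entry, 1.52 against 0.077. Rpl36 gave 1.78 against -0.01.

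These 7 and Rps12, Rps26, Rps28, Rpl12, Rplp0, Rpl34, Rpl35a, Rpl26, Rpl35, Rpl30, Rpl7, Rpl13 and Rpl6 had fitted log2 changes of 0.54 to 1.38. Their adjusted p ran from 0.057 to 0.182, so none passed. Without 3 h replicate 2 the changes ran from -0.11 (Rpl9) to 0.38 (Rpl21). Rpl9, Rpl7a, Rpl36, Rps27a, Rps12 and Rpl35 then still missed the threshold, and the others passed. Rps26, which contacts the mRNA just upstream of the start codon, stood at 376 and 343 cRPKM untreated, 369 and 365 at 0.5 h, and 398 and 934 at 3 h. Rpl26, known to bind the p53 mRNA, stood at 653 and 644 cRPKM untreated, 657 and 667 at 0.5 h, and 731 and 1585 at 3 h. In all of these 20 but Rpl9 and Rpl36 both 3 h libraries were above both untreated ones, replicate 1 by little. Rps7, Rps9, Rpl27 and Rpl23a, with log2 changes of 0.39, 0.27, 0.29 and 0.39, did not pass either (adjusted p 0.107, 0.0647, 0.179 and 0.296 by edgeR). Without that library they were 0.12, 0.40, 0.25 and 0.062, and Rps9 alone of the 4 passed.

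By replicate number, the family's median change at 3 h was small in 1 pair of libraries and larger in the other. The median log2 change of cRPKM at 3 h was 0.17 in replicate number 1, with 67 of 76 members above 0, a range of -0.22 to 0.41 and 0 members at 2-fold. In replicate number 2 it was 0.56, with 74 of 76 above 0, a range of -1.15 (Rps27) to 2.76, and 27 members at 2-fold or more, 9 small and 18 large. Over all genes the medians were -0.09 and -0.05. Of the 15895 genes tested, 6041 were above 0 in replicate number 1 and 7193 in replicate number 2. At 2-fold or more there were 861 and 1032, in that order. Across the 76 members the changes in the replicate numbers had a Spearman rho of -0.327, a description over genes of the same 4 libraries. Leaving out 3 h replicate 2, the fitted medians were 0.29 in the small and 0.27 in the large subunit. Leaving out 3 h replicate 1 they were 0.54 and 0.57. The fits scale libraries otherwise than cRPKM does, and over all genes these 2 fits gave medians of 0.006 and -0.04.

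**Figure D3:**
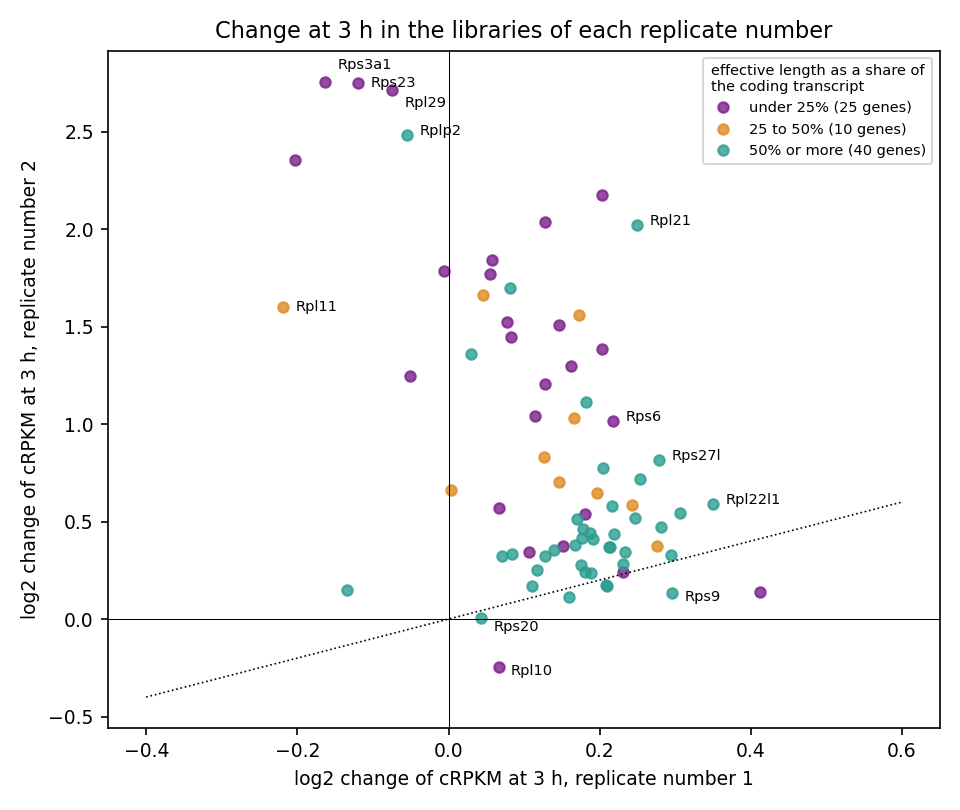
Log2 change of cRPKM at 3 h against untreated within replicate number 1 (x axis) and within replicate number 2 (y axis) for the 75 tested members, coloured by effective length as a share of the coding transcript; the dotted line marks equal change. Members with a short effective length reach up to 2.76 in replicate number 2 while staying within 0.41 of 0 in replicate number 1.

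The split between replicate numbers moved with the effective length. In 40 members the usable bases were at least 50% of the median coding transcript length, and of these 29 were called, with medians of 0.19 in replicate number 1 and 0.38 in replicate number 2. In the other 36, of which 35 were tested, 8 were called, with medians of 0.12 and 1.23. Since 18.6% of all genes tested were called higher at 3 h, the share in this shorter group was near the background. Of the 27 members at 2-fold or more in replicate number 2, 22 were in this shorter group. From the shortest bin to the longest (under 10%, 10 to 25%, 25 to 50%, 50 to 75% and over 75%) the replicate number 2 medians were 1.49, 1.25, 0.77, 0.42 and 0.37, over 10, 15, 10, 8 and 32 members. In replicate number 1 they were 0.07, 0.13, 0.16, 0.16 and 0.20. Bins of other genes gave 0.63, 0.13, -0.01, -0.07 and -0.05 in replicate number 2, over 98, 121, 408, 657 and 13979 genes.

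Rpl12, Rpl35 and Rpl30, with 50.9%, 53.0% and 77.7% of the transcript usable, were also at 2-fold or more in replicate number 2. Rplp2, with 523 usable bases, and Rpl21, with 1307, were further exceptions. Their usable length exceeded the coding transcript, and they too were far higher in 3 h replicate 2. Their counts were 1034, 689, 871, 550, 983 and 2858 for Rplp2 and 1482, 1025, 1310, 931, 1739 and 3089 for Rpl21, in the order untreated, 0.5 h and 3 h. For Rps3a1, with 115 usable bases, counts were 1190, 731, 889, 562, 1049 and 3667. The difference between replicate numbers had a Spearman rho of -0.451 with effective length and -0.106 with the untreated level over 76 members, again a description. Whether the effective length, or reads shared with pseudogene copies, plays a part in the rise in that library was not tested.

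**Figure D4:**
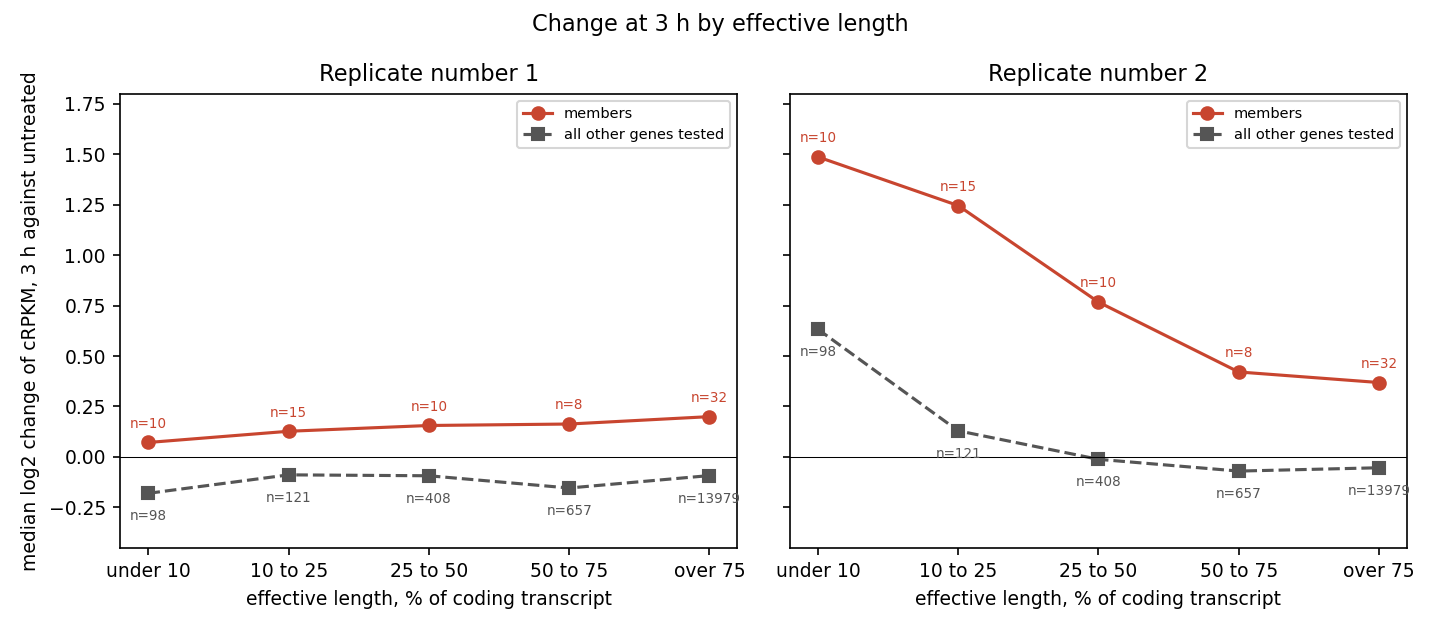
Median log2 change of cRPKM at 3 h against untreated by effective length (as % of the coding transcript), for members (circles) and all other genes tested (squares), in replicate number 1 on the left and 2 on the right; n is the number of genes in a bin. Members fall from 1.49 to 0.37 across the bins in replicate number 2 and lie between 0.07 and 0.20 in replicate number 1.

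Between 0.5 h and 3 h every member that passed was again higher. Of 75 members tested 24 rose (edgeR, adjusted p under 0.05), 11 in the small and 13 in the large subunit, and 0 fell, where 15.6% of all genes were called higher and 15.6% lower. The medians were 0.41 and 0.39, beside -0.03 over all genes. Both 3 h libraries lay above both 0.5 h libraries in 60 of 76 members (25 small, 35 large), against 21% of all genes. The count was 1 with no replicate block (6.39% of all genes higher) and 0 without 0.5 h replicate 2 (6.17%). It was 63 without 3 h replicate 2 (28.6%), 67 without 3 h replicate 1 (31%) and 42 without either untreated library in turn (14.7% and 14.4%). Without 0.5 h replicate 1 it was 31 (7.35%), holding 2 of the 24. With limma at pseudocounts of 0.1 and 1 it was 0 and 0 (10.1% and 9.5% of all genes), and with library totals 4 (11.3%). The share of members was then below that of all genes. The sets called without either untreated library held only part of the 24. This comparison shares its 3 h libraries with the one against untreated.

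Among the largest called rises between the times in the small subunit were those of Rps27l (0.55, adjusted p = 0.0338), Rps19 (0.55, adjusted p = 0.0401), Rps25 (0.42, adjusted p = 0.025) and Rps21 (0.37, adjusted p = 0.0216). In the large subunit they included those of Rpl7l1 (0.46, adjusted p = 0.0387), Rpl37a (0.45, adjusted p = 0.0389), Rpl23 (0.38, adjusted p = 0.0259) and Rpl13a (0.38, adjusted p = 0.0211). In the fit without 3 h replicate 2 these were 0.35 for Rps27l, 0.32 for Rps19, 0.28 for Rpl7l1 and 0.28 for Rpl37a, all called. Rps6 had a larger fitted change, 0.68, adjusted p = 0.058, and did not pass; without that library it was 0.31 and passed. Rps7, which lay below untreated at 0.5 h, stood at 108 and 102 cRPKM untreated, 98.6 and 99.3 at 0.5 h, and 108 and 162 at 3 h, and its change between the times was 0.50, adjusted p = 0.0673, or 0.23 without 3 h replicate 2, then called.

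The sequence at the start was set beside the change at 3 h. Of 34 tested members with the run 18 were called (median log2 change 0.40), and of 21 without it 10 were called (median 0.44). With CCGGAAG in the window 10 of 22 were called (median 0.51), and without it 18 of 33 (median 0.37). Of all genes tested, 18.6% were called higher at 3 h. No test was made of the differences between members with and without a sequence.

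Ribosomal protein genes that the name pattern does not match gave a like picture at 3 h. Of these 5 genes 2 rose (40%, beside 18.6% of all genes) and 0 fell (median log2 change 0.25). Rack1, the signalling scaffold on the small subunit head, stood at 188 and 175 cRPKM untreated, 194 and 187 at 0.5 h, and 224 and 224 at 3 h and rose, with a log2 change of 0.36 ± 0.068 (SE, adjusted p = 0.017). Rpl36al rose as given above. Rpsa stood at 37.6 and 30.4 cRPKM untreated, 36.5 and 26.1 at 0.5 h, and 36.8 and 92.4 at 3 h, with 0.93 ± 0.45 (SE, adjusted p = 0.156), and again only 3 h replicate 2 stood out; without it the change was 0.02. Fau, which carries Rps30, had 0.24 ± 0.15 (SE, adjusted p = 0.254).

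Genes that make the ribosome rose in part at 3 h, and 0 of them were called at 0.5 h. The shares called in these lists stand beside 18.6% higher and 18.6% lower over all genes, and no list was tested against them. For rRNA synthesis (RNA polymerase I and its factors, with Myc, Mycn and Max), 6 of 17 tested rose (35.3%) and 2 fell (11.8%), with a median log2 change of 0.17. Nolc1, a nucleolar scaffold, rose by 0.78 ± 0.062 (SE, adjusted p = 0.00308). The Myc transcription factors went opposite ways. Myc stood at 8.97 and 9.24 cRPKM untreated, 8.42 and 9.03 at 0.5 h, and 15.6 and 22.5 at 3 h and rose by 1.10 ± 0.12 (SE, adjusted p = 0.00557), and Mycn stood at 19.6 and 13.9 cRPKM untreated, 18.8 and 12.2 at 0.5 h, and 9.20 and 6.10 at 3 h and fell, at -1.08 ± 0.077 (SE, adjusted p = 0.0026). For small subunit assembly 13 of 48 rose (27.1%) and 1, Nol6, fell (2.08%), with a median of 0.25. Fbl, the methyltransferase of box C/D particles, stood at 34.3 and 28.2 cRPKM untreated, 37.9 and 35.0 at 0.5 h, and 79.8 and 66.3 at 3 h and rose by 1.28 ± 0.077 (SE, adjusted p = 0.00218). Nop14 rose by 0.77 ± 0.063 (SE, adjusted p = 0.00314).

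Large subunit assembly had 15 of 47 genes higher (31.9%) and 0 lower (median 0.31). Sbds, which helps release Eif6 from the new subunit, stood at 24.0 and 26.9 cRPKM untreated, 25.8 and 29.0 at 0.5 h, and 36.6 and 46.3 at 3 h and rose by 0.75 ± 0.069 (SE, adjusted p = 0.00369). Las1l, of the complex that cuts the spacer of the ribosomal RNA precursor, rose by 0.48 ± 0.071 (SE, adjusted p = 0.00948). Of 8 chaperones that escort single ribosomal proteins 2 rose (25%) and 0 fell (median 0.28), namely Nap1l1 (0.49 ± 0.067 SE, adjusted p = 0.00797) and Bccip (0.36 ± 0.10 SE, adjusted p = 0.0499, or 0.23 without 3 h replicate 2 and also called).

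Other mRNAs with a known TOP tract rose in 8 of 18 cases (44.4%) and fell in 0 (median 0.23); Nap1l1 and Npm1 are on this list and on another. Vim, the intermediate filament gene of astrocytes and immature cells, stood at 102 and 84.9 cRPKM untreated, 103 and 93.1 at 0.5 h, and 307 and 460.2 at 3 h and rose by 2.08 ± 0.21 (SE, adjusted p = 0.00437). Tpt1, a classic TOP mRNA, stood at 486 and 442 cRPKM untreated, 498 and 490.1 at 0.5 h, and 628 and 691 at 3 h and rose by 0.56 ± 0.087 (SE, adjusted p = 0.0105). Of 18 genes that control TOP translation 4 rose (22.2%, near the share of all genes) and 1 fell (5.56%), with a median of 0.14. Rheb, the GTPase that switches mTOR on, stood at 73.1 and 73.6 cRPKM untreated, 74.8 and 75.5 at 0.5 h, and 122 and 124 at 3 h and rose by 0.80 ± 0.064 (SE, adjusted p = 0.00308). Cnbp, which binds TOP mRNAs, rose by 0.60 ± 0.099 (SE, adjusted p = 0.012). Mtor itself stood at 19.0 and 18.5 cRPKM untreated, 19.5 and 17.7 at 0.5 h, and 14.0 and 12.6 at 3 h and fell, at -0.44 ± 0.074 (SE, adjusted p = 0.0126).

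For ribosome rescue and quality control 5 of 17 rose (29.4%) and 0 fell (median 0.18), led by the p53 regulator Mdm2 (0.59 ± 0.078 SE, adjusted p = 0.00725) and by Ascc3, a helicase that splits collided ribosomes (0.74 ± 0.10 SE, adjusted p = 0.00797). Of 77 mitochondrial ribosomal proteins 8 rose (10.4%) and 5 fell (6.49%), both below the shares of all genes, with a median of 0.02. Mrps6 rose by 0.86 ± 0.063 (SE, adjusted p = 0.00271) and Mrpl10 fell, at -0.47 ± 0.063 (SE, adjusted p = 0.00781). The P stalk and 5S genes are among the members, with 1 of 4 and 1 of 2 called. In replicate number 1 alone the list medians were -0.05 for rRNA synthesis, -0.004 for small and 0.077 for large subunit assembly, 0.03 for chaperones, 0.14 for other TOP mRNAs, 0.024 for TOP control, 0.11 for rescue and quality control and -0.094 for mitochondrial ribosomal proteins. In replicate number 2 they were, in that order, 0.25, 0.39, 0.41, 0.41, 0.22, 0.11, 0.18 and 0.045. With no replicate block the small and large subunit assembly lists had 10 and 8 genes higher, other TOP mRNAs 4 and mitochondrial ribosomal proteins 1, where 8.71% of all genes were. Without 3 h replicate 2, where 30.3% of all genes were higher and 27.8% lower, the genes higher and lower were 6 and 5 for rRNA synthesis, 22 and 8 for small subunit assembly, and 28 and 5 for large subunit assembly. They were then 15 and 0 for other TOP mRNAs, 8 and 4 for TOP control, 12 and 1 for rescue and quality control, and 17 and 17 for mitochondrial ribosomal proteins.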

How the data were processed

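RNA was sequenced from 6 libraries of cultured mouse hippocampal neurons, 2 in each of 3 groups, taken from the library titles. Per the labels' protocols, RNA was extracted with TriReagent and libraries were made with the TruSeq RNA kit, which does not mark the strand, so reads of a gene and an antisense partner cannot be told apart. Per the submitters' processing notes, the mouse build mm9 and Bowtie were used; versions, the gene annotation and the rule for reads with several matches are unknown here. The authors deposited, per gene, a read count without normalization and an RPKM they call cRPKM, whose c no source used here defines. The effective length of a gene is the count divided by the cRPKM and by the library total; it was set against the median coding transcript in a GENCODE annotation of a later build, which also gave the symbols (20451 of 21553 genes). The rows without a value stayed out.

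The test on counts was edgeR's quasi-likelihood F test (version 4.0.16, R 4.3.3), with TMM scaling. Low genes were removed by filterByExpr at a minimum of 10, which kept 15895 genes with 99.99% of counts. All 6 libraries entered a single model with terms for group and replicate number. It leaves 2 residual degrees of freedom (prior 3.06) and a biological coefficient of variation of 9.72%, against 19.2% with no replicate block. The differences between replicates 1 and 2 correlated over 15895 genes with r = 0.805 (untreated and 0.5 h), 0.577 (untreated and 3 h) and 0.613 (0.5 h and 3 h), so the numbers were read as a pairing. That reading rests on the data, since the labels name no shared culture or day. Called means a Benjamini-Hochberg adjusted p under 0.05 over all genes tested. The SE is the size of the log2 change divided by the square root of F. Within-replicate changes are log2 ratios of cRPKM. Total counts of 98882007 to 141865913 make counting error small for all but the sparsest members.

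Genes named were those with the 5 largest called changes per subunit, the highest and lowest levels, paralogs, the P stalk and 5S genes, members whose libraries did not overlap with a log2 change of at least 0.5, and up to 2 genes per list with the smallest adjusted p. A few others were named after their values were seen, to account for more of the members. Some genes that these rules take are not reported here. The lists were ribosomal protein genes outside the name pattern, paralog pairs, P stalk, 5S particle, rRNA synthesis, small and large subunit assembly, chaperones, other TOP mRNAs, TOP translation control, rescue and quality control, and mitochondrial ribosomal proteins. Members and lists were chosen with earlier results of these data known. Alternatives were DESeq2 1.42.0, limma 3.58.1 on log2(cRPKM + 1) and log2(cRPKM + 0.1), RLE size factors, library totals, no filter, no replicate block, other level limits and leaving out each library. The script was tested on simulated data.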

Additional observations from a re-analysis of the deposited data

Results flagged for a closer look

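In the members listed here the log2 change at 3 h was above that at 0.5 h, both against untreated. The difference itself was tested (edgeR, adjusted p under 0.05). Both 3 h libraries lay above both 0.5 h libraries in all of them but Rpl22l1 and Rplp1. In those, 0.5 h replicate 2 was above 3 h replicate 1, at 52.2 against 48.1 cRPKM for Rpl22l1 and 2625 against 2521 for Rplp1. In the small subunit the differences were 0.55 for Rps27l, 0.55 for Rps19, 0.42 for Rps25 and 0.37 for Rps21. In the large subunit they were 0.46 for Rpl7l1, 0.45 for Rpl37a, 0.38 for Rpl23, 0.38 for Rpl13a, 0.38 for Rpl32, 0.37 for Rpl22l1, 0.29 for Rpl5, 0.29 for Rpl39 and 0.28 for Rplp1. The untreated libraries are common to both changes and cancel in the difference, so this is the comparison of 3 h with 0.5 h given above and not a further result. With no replicate block 1 of 75 members tested passed, and with the block kept 0 passed with limma at either pseudocount, 4 with library totals and 0 without 0.5 h replicate 2. Of all genes tested, 6.39% were called higher with no replicate block, 10.1% and 9.5% with limma, and 11.3% with library totals. In those settings the share of members was below that of all genes. The differences listed thus depend on the pairing of libraries by number, on the test and scaling, and on 0.5 h replicate 2. Without 3 h replicate 2 they were 0.35 for Rps27l, 0.32 for Rps19, 0.28 for Rpl7l1 and 0.28 for Rpl37a.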

How the results depend on the processing

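Of all genes tested 18.6% were called higher at 3 h against untreated, and 19.8% with DESeq2. The share was 14.6% with library totals, 13.2% and 12.4% with limma at pseudocounts of 0.1 and 1, and 8.71% with no replicate block. The members' share was near it with limma at a pseudocount of 1 and with no replicate block. For 3 h against 0.5 h the shares were, in that order, 15.6%, 17.4%, 11.3%, 10.1%, 9.5% and 6.39%. With library totals, limma and no block members were below these. The count of members higher at 3 h against untreated was 37. It was 23 with library totals, 16 and 12 with limma at pseudocounts of 0.1 and 1, 7 with no replicate block, and 0 to 69 leaving out 1 library. It stayed within 1.5 times with DESeq2 (52), RLE size factors (38), no filter (36), other level limits (37 and 37), and, chosen after seeing the data, among members of at least 50% effective length (29). Between 0.5 h and 3 h it was 24, against 43 with DESeq2, 4 with library totals, 0 and 0 with limma, 1 with no replicate block, and 0 to 67 leaving out 1 library. At 0.5 h members called lower numbered 0, and 0 to 2 leaving out 1 library. Medians between 0.5 h and 3 h on the cRPKM scale were 0.16 (small) and 0.14 (large) in replicate number 1. Fitted medians for that comparison were 0.26 to 0.47 and 0.24 to 0.51 leaving out 1 library. Against untreated these ranges were 0.29 to 0.55 and 0.27 to 0.57. At 0.5 h the large subunit median was 0.092 in replicate number 2, with ranges of -0.037 to 0.14 (small) and -0.057 to 0.15 (large). No direction of a called value reversed. Library totals moved the median of all genes to -0.08 (3 h against untreated) and -0.11 (3 h against 0.5 h), and all-gene calls at 3 h against untreated were then 2324 higher and 3627 lower, against 2963 and 2955. The cause of these changes was not tested. With 2 libraries a group, leaving 1 out leaves 1 residual degree of freedom, and the lone library is assumed to vary like the others. Depth limits Rps13, Rps27, Rpl10 and Rpl23a, which had at most 124 counts in a library.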

Other observations

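Rows for 38 ribosomal protein pseudogenes also held values, and their summed cRPKM too was highest in 3 h replicate 2. Their summed cRPKM was 113.5 and 111.2 untreated, 104.2 and 127.4 at 0.5 h, and 155.5 and 314.7 at 3 h. Their summed counts were 2000 and 2253, 1894 and 2051, and 1656 and 1233, in libraries of unlike depth. As a share of all counts they held 0.00141% and 0.00169% untreated, 0.00139% and 0.00177% at 0.5 h, and 0.00118% and 0.00125% at 3 h. Most of these counts came from a single row, Rps4l, with 1927 and 2182 untreated, 1822 and 1990 at 0.5 h, and 1552 and 1093 at 3 h. The count shares thus mainly follow Rps4l. Outside Rps4l the counts were few, and they were highest in 3 h replicate 2, although that library had the lowest total. Rps4l stood at 22.8 and 22.7 cRPKM at 3 h, so the higher cRPKM sum in 3 h replicate 2 came from other rows.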
